A study of Mus musculus with 4 samples.

Results

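Muscle cells break down their own proteins through a small group of ubiquitin ligases that striated muscle makes at high levels, and 5 genes of that system are described here in the right ventricle of adult mice labelled Ezh2-deficient. The members are Fbxo32, which encodes the F-box protein atrogin-1, the muscle RING-finger genes Trim63 (MuRF1), Trim55 (MuRF2) and Trim54 (MuRF3), and Foxo1, a forkhead transcription factor known to activate Fbxo32 and Trim63 in wasting muscle. They were picked by gene symbol, and each matched 1 row, so that 5 of the 29595 rows of the read table are described. A ubiquitin ligase brings a target protein to a ubiquitin-charged enzyme, and the tagged protein is then degraded by the proteasome. Atrogin-1 does so as the substrate-binding part of an SCF complex, whereas the MuRF proteins carry their own RING domain and bind the titin filament of the sarcomere and microtubules. Insulin signalling through Akt keeps Foxo proteins out of the nucleus, and in heart and skeletal muscle its loss is known to raise the atrophy genes.

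The mutant group held 2 Ezh2-deficient right ventricles, named mutant 1 and mutant 3 as in the labels, and the control group 2 wild-type right ventricles, wild type 1 and wild type 2. All 4 adult animals were of a mixed background of C57BL/6. Ezh2 is the methyltransferase of Polycomb repressive complex 2, with the alleles, the cells they act in and any Cre driver not given in the sources used here. Libraries of polyadenylated RNA had been treated with a duplex-specific nuclease, which lowers abundant transcripts, so levels of different genes are not proportional to their RNA and large differences of abundant genes may be compressed. The comparison asks which transcripts of the adult right ventricle differ between hearts labelled Ezh2-deficient and wild type. Where values for the libraries are listed below, the order is wild type 1, wild type 2, mutant 1 and mutant 3.

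The libraries held 18177642 to 23853394 reads, of which 34.7% to 47.3% came from mitochondrial genes. The Ezh2 row had 77, 67, 73 and 70 reads, so it does not separate the groups, and it does not check the labels because the deleted part is not given. Sex followed genotype: the Y-linked gene Ddx3y had 2, 2, 754 and 659 reads, so genotype and sex cannot be told apart in any comparison below. The ventricular markers were abundant in every library, with a summed level of 42939 to 56995 CPM (reads per 1000000, scaled with the TMM method) over 8 genes led by Myh6, Myl2 and Actc1. Counts were tested with edgeR's quasi-likelihood test over all 16128 rows that passed the filter on low counts, and an adjusted p under 0.05 is called here a pass. By that rule 17 rows were higher and 4 lower in the mutants (76 higher and 80 lower when scaled by total reads alone). In bulk tissue, fewer cells of a type and less RNA per cell cannot be told apart.

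None of the 5 genes passed the test over all rows. Foxo1 was read at 0.606 times its wild-type level in the mutants and Trim54 at 1.69 times, while the ratios of Fbxo32, Trim63 and Trim55 lay between 0.995 and 1.12. By edgeR's quasi-likelihood test 0 of 5 members passed, against 0.130% of all tested rows. DESeq2 passed 0 of 5 (1.41% of all rows) and limma-voom 0 of 5 (0.0868%). At an unadjusted p under 0.05 there was 1 higher (Trim54) and 1 lower (Foxo1), against 10.9% of all tested rows in either direction. With TMM scaling the groups did not overlap for 3 of the 5 (Trim54 and Trim63 higher, Foxo1 lower), as for 44.8% of all tested rows. When scaled by total reads alone, Trim63 was at -0.12 on the log2 scale. On that scale Trim54 was lower in mutant 3 than in wild type 1 (authors' deposited ratio 0.896), so its groups overlapped.

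**Figure D1:**
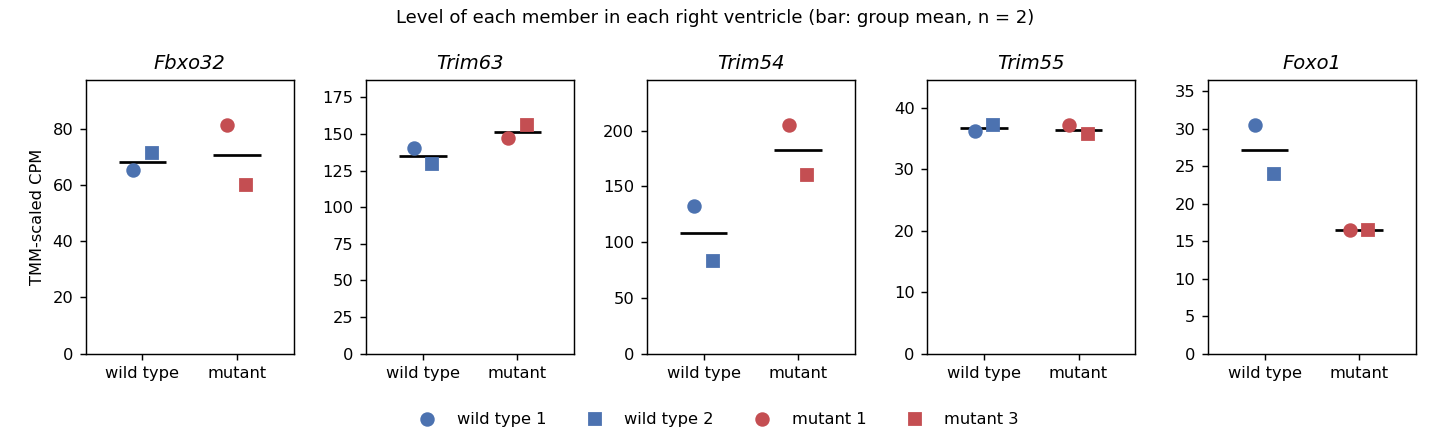
TMM-scaled CPM (vertical axes, from 0) of each member in the 2 wild-type and 2 mutant right ventricles, with a bar at each group mean. Both mutants lie below both wild types for Foxo1 (16.5 and 16.5 against 30.5 and 23.9 CPM) and above them for Trim54, while the groups cross for Fbxo32 and Trim55.

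Foxo1 is the transcription factor of the set (mm9 chromosome 3, 52072296 to 52153460, plus strand). It had 684, 475, 353 and 325 reads, or 30.5, 23.9, 16.5 and 16.5 CPM. Both mutant ventricles were lower than both wild types, and with TMM scaling the mutants were nearly equal to each other. Mutants averaged 16.5 ± 0.00543 CPM and wild types 27.2 ± 4.64 (SD, n = 2 each). The log2 fold change was -0.72 ± 0.23 (SE), with a 95% interval of -1.25 to -0.19 and an adjusted p of 0.327 by edgeR (0.302 by DESeq2). The wild types differed from each other by 0.35 on the log2 scale. Without wild type 2 the log2 fold change was -0.89 and passed (edgeR adjusted p = 0.00193, range over its alternatives 0.00193 to 0.99997), in a fit where 8.83% of rows passed as lower. Without wild type 1 it was -0.53 (adjusted p = 0.0552). A library left alone in its group is assumed there to vary like the other group.

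The other Foxo genes were also read at lower means in the mutants, and none passed. Foxo3 (row Foxo3a), the relative studied most in muscle wasting, stood at 24.5, 15.4, 17.4 and 11.8 CPM, with overlapping groups and a log2 fold change of -0.45 ± 0.30 (edgeR adjusted p = 0.629). A shorter row within its span, Fkhr2, is an older name of the same gene, with 118, 74, 117 and 60 reads, and reads may be split or shared between these rows. Foxo4 stood at 28.3, 25.5, 24.6 and 20.8 CPM (-0.24 ± 0.22, adjusted p = 0.719), with both mutants just below the wild types. Foxo6 was the lowest of the family, at 84, 51, 20 and 35 reads, and both mutants were below both wild types (-1.22 ± 0.44, adjusted p = 0.372).

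Fbxo32 encodes atrogin-1, whose SCF complex is known to target calcineurin in heart muscle (mm9 chromosome 15, 58011634 to 58046429, minus strand). It had 1466, 1422, 1743 and 1182 reads, or 65.3, 71.5, 81.3 and 59.9 CPM. The mutants were the highest and the lowest of the 4 libraries, with the wild types between them. Mutants averaged 70.6 ± 15.1 CPM and wild types 68.4 ± 4.43 (SD, n = 2 each). The log2 fold change of 0.05 ± 0.23 had an adjusted p of 0.958 by edgeR, and its 95% interval of -0.49 to 0.58 still allows a ratio from 0.714 to 1.49. It turned to -0.22 when scaled by total reads alone (where the median of all rows was -0.28), to -0.16 without mutant 1 and to -0.02 without wild type 1.

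Trim63 encodes MuRF1, which is known to ubiquitinate thick-filament proteins of the sarcomere (mm9 chromosome 4, 133871035 to 133885544, plus strand). It had 3159, 2580, 3156 and 3076 reads, or 140.7, 129.8, 147.3 and 156.0 CPM. Both mutants were above both wild types by a narrow margin. Mutants averaged 151.6 ± 6.16 CPM and wild types 135.2 ± 7.68 (SD, n = 2 each). The log2 fold change was 0.17 ± 0.21, with a 95% interval of -0.31 to 0.64 and an adjusted p of 0.807 by edgeR. Scaled by total reads alone it was -0.12, again with the median of all rows at -0.28. The row for Trim63 had no overlap with another row of the table, as was true for all 5 members.

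Because Foxo proteins are known to act at the promoter of the MuRF1 gene, the 250 bases before the start of Trim63 are shown, beside those of Trim54 for comparison. They are from RefSeq on GRCm38.p6, where 3 of the 5 members (Trim63, Trim54 and Foxo1) had an entry. Trim63 is at chr4:134314870-134315119 and Trim54 at chr5:31116362-31116611, both on the plus strand, written 5′ to 3′. Capitals mark the forkhead element TTGTTTAC and the TATA-type run TATAAA, the letters searched on both strands together with the shorter forkhead core GTAAACA.
Trim63: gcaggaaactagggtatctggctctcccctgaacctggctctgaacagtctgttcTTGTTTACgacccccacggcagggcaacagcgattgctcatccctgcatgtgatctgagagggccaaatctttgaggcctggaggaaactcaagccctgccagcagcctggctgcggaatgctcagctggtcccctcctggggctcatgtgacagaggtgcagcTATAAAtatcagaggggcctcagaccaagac
Trim54: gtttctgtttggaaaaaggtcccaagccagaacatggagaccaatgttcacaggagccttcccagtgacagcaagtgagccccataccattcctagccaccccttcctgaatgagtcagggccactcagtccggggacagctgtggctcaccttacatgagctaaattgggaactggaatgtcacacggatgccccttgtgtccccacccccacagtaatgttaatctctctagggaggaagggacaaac
In Trim63, TTGTTTAC lies 195 to 188 bases before the start, and the core match lies inside it on the opposite strand. TATAAA lies 31 to 26 bases before the start. The 250 bases of Trim54 and of Foxo1 held none of these letters. Of 32851 promoters of that length, 1.07% held TTGTTTAC, 3.17% held GTAAACA and 12.4% held TATAAA. The muscle regulatory E-box CANNTG was found 3 times in Trim63, at 2 places in Trim54 and at 1 in Foxo1, and 66.2% of all promoters held it.

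Trim54 encodes MuRF3, which is known to stabilise microtubules in muscle cells and to target the cytoskeletal LIM protein Fhl2 (mm9 chromosome 5, 31419085 to 31439999, plus strand). It had 2971, 1658, 4392 and 3160 reads, or 132.3, 83.4, 205.0 and 160.2 CPM. With TMM scaling both mutants exceeded both wild types, and libraries of the same group also stood apart. Scaled by total reads alone, mutant 3 was below wild type 1 (authors' deposited ratio 0.896). Mutants averaged 182.6 ± 31.6 CPM and wild types 107.9 ± 34.6 (SD, n = 2 each). The log2 fold change was 0.76 ± 0.28, with a 95% interval of 0.11 to 1.40 and an adjusted p of 0.381 by edgeR (0.266 by DESeq2). The difference between the wild types alone was 0.67 and that between the mutants 0.36 on the log2 scale. Without wild type 1 the log2 fold change was 1.13 and passed (edgeR adjusted p = 0.000845, range over its alternatives 0.000845 to 0.99997), in a fit where 7.87% of rows passed as higher. Without wild type 2 it was 0.46 (adjusted p = 0.0768).

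Trim55 encodes MuRF2, which binds titin and microtubules during sarcomere assembly (mm9 chromosome 3, 19544460 to 19591599, plus strand). It had 813, 739, 797 and 706 reads, or 36.2, 37.2, 37.2 and 35.8 CPM. All 4 libraries lay within a narrow range, and the groups overlapped. Mutants averaged 36.5 ± 0.984 CPM and wild types 36.7 ± 0.692 (SD, n = 2 each). The log2 fold change of -0.01 ± 0.20 had a 95% interval of -0.48 to 0.46 and an adjusted p of 0.995 by edgeR. Scaled by total reads alone it was -0.29, close to the median of all rows on that scale (-0.28). The interval allows a ratio between the groups from 0.719 to 1.38.

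**Figure D2:**
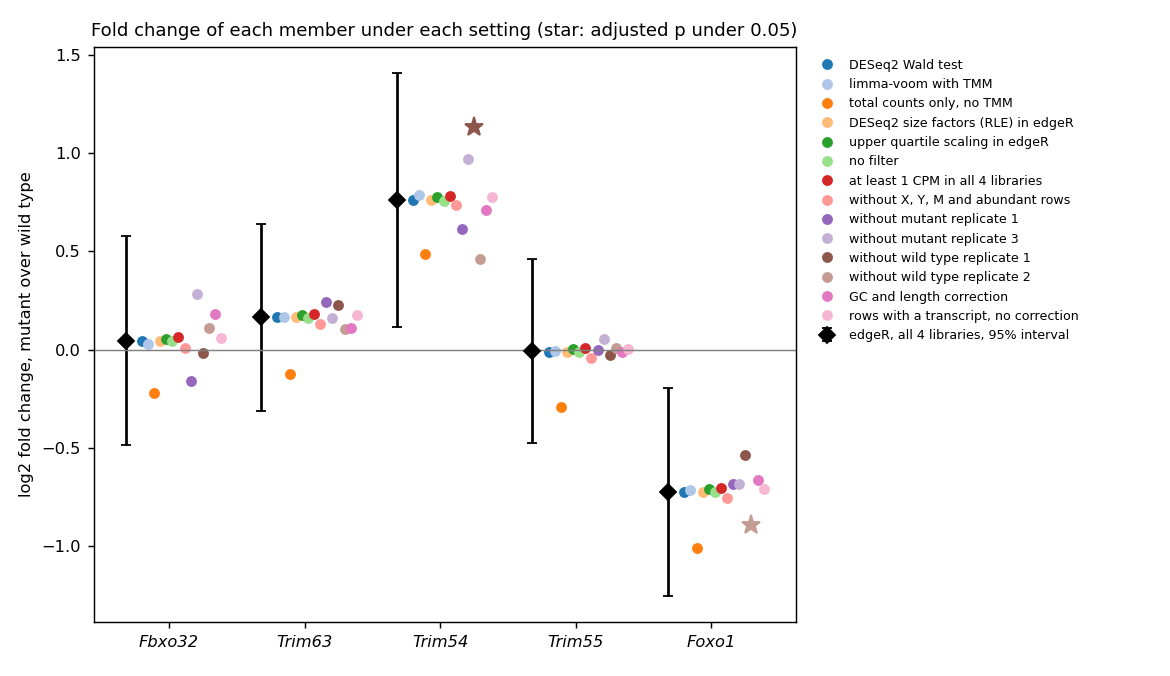
Log2 fold change of each member, mutant over wild type, by edgeR with all 4 libraries (diamonds, with 95% intervals) and under 14 other settings (points). Foxo1 lies below 0 and Trim54 above 0 at every setting drawn, and the stars mark a pass without wild type 1 for Trim54 and without wild type 2 for Foxo1.

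Ratios within a library, which need no scaling, set the MuRF genes against each other. Trim63 had 1.06, 1.56, 0.719 and 0.973 reads for each read of Trim54, below 1 in both mutants and above 1 in both wild types. The log2 ratio averaged -0.26 ± 0.31 over mutants and 0.36 ± 0.39 over wild types (SD, n = 2 each). Trim54 had 3.65, 2.24, 5.51 and 4.48 reads for each read of Trim55, higher in both mutants, with a difference of 0.79 on the log2 scale. Trim63 had 3.89, 3.49, 3.96 and 4.36 reads for each read of Trim55, again without overlap but with a difference of 0.17. Fbxo32 had 0.464, 0.551, 0.552 and 0.384 reads for each read of Trim63, with overlapping groups and a difference of -0.13, which was 0.13 without mutant 3 and -0.40 without mutant 1. With 2 libraries against 2, a two-sided exact permutation test allows no p under 0.33. The first 3 ratios had that smallest p and the last a p of 1 (0.444 and 1 when adjusted over the 4 ratios), so no ratio was shown to differ between the groups.

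Per kilobase of transcript, the members spanned a wide range of levels. Trim54 averaged 127 ± 22.05 CPM per kilobase over mutants and 75.2 ± 24.1 over wild types (SD, n = 2 each). Trim63 stood at 80.4 ± 3.26 and 71.7 ± 4.07 in the same order. These neighbours overlapped in the wild types, where wild type 2 had Trim63 above Trim54 and wild type 1 the reverse. In both mutants Trim54 was the higher. Trim55 followed at 14.1 ± 0.379 and 14.1 ± 0.267 CPM per kilobase, and Fbxo32 at 10.1 ± 2.17 and 9.81 ± 0.635. The order of Trim55 above Fbxo32 held in all 4 libraries. Foxo1 was the lowest, at 1.90 ± 0.000629 and 3.14 ± 0.535. Transcript lengths of 1434 (Trim54) to 8665 bases (Foxo1) came from a later annotation, and how far the nuclease treatment altered the levels was not tested.

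**Figure D3:**
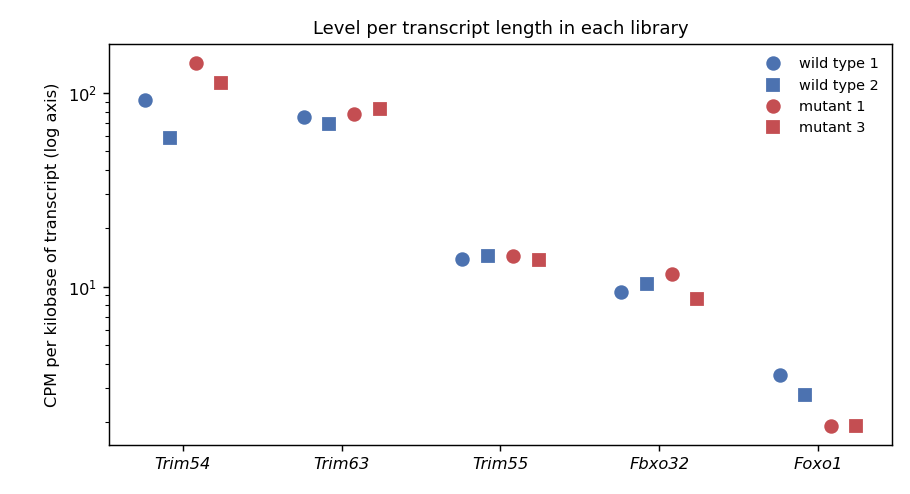
Level of each member in each library as TMM-scaled CPM per kilobase of transcript, on a log axis. Trim54 and Trim63 lie above the other members in every library, and Foxo1 lies lowest, between 1.90 and 3.52 CPM per kilobase.

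The wider pathway was read through 7 lists with 162 entries, of which 161 were found in the table. The ubiquitin gene Ubb was left out because its name appears only with suffixes for several loci. By edgeR's adjusted p, 0 members of any list passed, against 0.130% of all tested rows. DESeq2 passed 1 (Irs2), against 1.41% of all rows, and limma-voom passed 0. The median log2 fold change of all tested rows was 0.00, and 49.5% of them were below 0. That median was -0.28 when scaled by total reads alone.

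Genes that control the Foxo factors were mostly read lower in the mutants. Of 21 tested genes in the list of Foxo factors and their control, 18 had a log2 fold change below 0, with a median of -0.27, and 4 lower and 0 higher had an unadjusted p under 0.05 (4.38% and 6.49% of all tested rows). Irs2, an adaptor of the insulin receptor whose gene is itself a reported Foxo target, stood at 11.9, 8.35, 4.39 and 3.19 CPM. Both mutants were below both wild types, with a log2 fold change of -1.42 ± 0.32 and an adjusted p of 0.175 by edgeR (0.0362 by DESeq2). Its relative Irs1 stood at 17.3, 22.3, 12.2 and 12.2 CPM (-0.70 ± 0.23, edgeR adjusted p = 0.349), the mutants again lower and nearly equal. Without mutant 3 the median of this list was -0.15. It was -0.19 without wild type 2 and -0.37 without wild type 1.

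Reported Foxo targets, such as genes of autophagy and cell cycle arrest, went both ways. Of 27 tested, 14 were below 0, and the median was -0.03. There were 2 higher and 1 lower with an unadjusted p under 0.05 (6.49% and 4.38% of all tested rows). Cdkn1a, the Cdk inhibitor p21, stood at 15.9, 12.2, 22.6 and 27.0 CPM, higher in both mutants (0.82 ± 0.24, edgeR adjusted p = 0.301). Ulk1, the kinase that starts autophagy, stood at 87.1, 65.2, 51.0 and 43.5 CPM, lower in both mutants (-0.69 ± 0.23, adjusted p = 0.354). The list's median was 0.17 without wild type 1, -0.14 without wild type 2, 0.08 without mutant 1 and 0.01 without mutant 3.

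Other ligases of muscle were mostly read lower in the mutants. Of 22 tested, 16 were below 0, with a median of -0.24. Only 1 gene, lower, and 0 higher had an unadjusted p under 0.05 (4.38% and 6.49% of all tested rows). That gene was Fbxo21, the F-box gene of the ligase called SMART in denervated muscle, at 34.8, 30.0, 17.6 and 19.3 CPM. Both mutants were below both wild types (-0.81 ± 0.22, edgeR adjusted p = 0.263). Next came Mul1 (row 0610009K11Rik), a mitochondrial ligase, at 59.9, 41.3, 38.7 and 30.1 CPM (-0.56 ± 0.26, adjusted p = 0.494). The list's median was -0.08 without mutant 3, -0.14 with the correction for GC content and transcript length described below, and -0.52 when scaled by total reads alone.

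The SCF core and ubiquitin-conjugating enzymes, with which atrogin-1 and the MuRF proteins work, were evenly split. Of 16 tested, 8 were below 0, and the median was 0.03 (-0.25 when scaled by total reads alone, with all rows at -0.28). An unadjusted p under 0.05 was found for 1 higher and 1 lower (6.49% and 4.38% of all tested rows). Cand1, which exchanges the substrate receptors of cullin ligases, stood at 22.98, 22.2, 14.5 and 13.8 CPM, lower in both mutants (-0.68 ± 0.21, edgeR adjusted p = 0.327). Nedd8, the ubiquitin-like protein that activates cullins, stood at 81.3, 67.3, 103 and 115 CPM, higher in both mutants (0.55 ± 0.22, adjusted p = 0.413). The list's median turned to -0.10 without wild type 1, to -0.01 without wild type 2 and to -0.18 with the correction for GC content and length.

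Ubiquitin and proteasome genes, the machinery downstream of the ligases, were mostly read higher in the mutants under TMM scaling. When scaled by total reads alone the list's median was -0.12, above the median of all rows on that scale (-0.28). Of 40 tested, 31 were above 0, with a median of 0.16. An unadjusted p under 0.05 was found for 7 higher and 0 lower (6.49% and 4.38% of all tested rows). Psma1, a subunit of the 20S core, stood at 32.1, 43.8, 64.7 and 71.5 CPM (0.84 ± 0.23, edgeR adjusted p = 0.278). Psma2, another subunit of the core, stood at 35.8, 37.2, 59.2 and 60.3 CPM (0.71 ± 0.20, adjusted p = 0.282). Both mutants exceeded both wild types for 19 of the 40, against 22.3% of all tested rows. The list's median was 0.35 without wild type 1 and 0.06 without wild type 2. With the correction for GC content and length it was -0.01.

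Regulators of Fbxo32 and Trim63 were mostly lower. Of 16 tested, 12 were below 0, and the median was -0.21. There were 1 higher and 2 lower with an unadjusted p under 0.05 (6.49% and 4.38% of all tested rows). Tnfrsf12a, the receptor of the cytokine TWEAK, which is known to induce MuRF1 in skeletal muscle, stood at 24.2, 11.2, 43.3 and 36.9 CPM. It was higher in both mutants (1.18 ± 0.35, edgeR adjusted p = 0.303). Hdac4, a class IIa histone deacetylase that raises both ligase genes in denervated muscle through myogenin, stood at 9.26, 8.85, 5.83 and 4.67 CPM (-0.79 ± 0.27, adjusted p = 0.357). The list's median was -0.12 without wild type 1, -0.13 without mutant 1, -0.10 with the correction for GC content and length, and -0.50 when scaled by total reads alone. Myogenin itself (Myog) had 0, 2, 0 and 3 reads and myostatin (Mstn) 1, 4, 3 and 2, too low for a test. Dach2, a repressor in the same pathway, had no read in any library.

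Among reported substrates and partners of the ligases, 6 of 15 tested were below 0. The median was 0.10 (-0.18 when scaled by total reads alone, with all rows at -0.28). Only 1 gene, higher, and 0 lower had an unadjusted p under 0.05 (6.49% and 4.38% of all tested rows). The gene was Ppp3ca, a catalytic subunit of calcineurin and so of the phosphatase that atrogin-1 targets, at 16.6, 21.2, 24.5 and 32.7 CPM. Both mutants were above both wild types (0.60 ± 0.25, edgeR adjusted p = 0.446). The paralog Ppp3cb was lower in both mutants, at 23.2, 30.4, 21.7 and 20.3 CPM (-0.35 ± 0.23, adjusted p = 0.622). Without wild type 2 the median turned to -0.09, and it was 0.21 without wild type 1 and 0.06 without mutant 3.

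**Figure D4:**
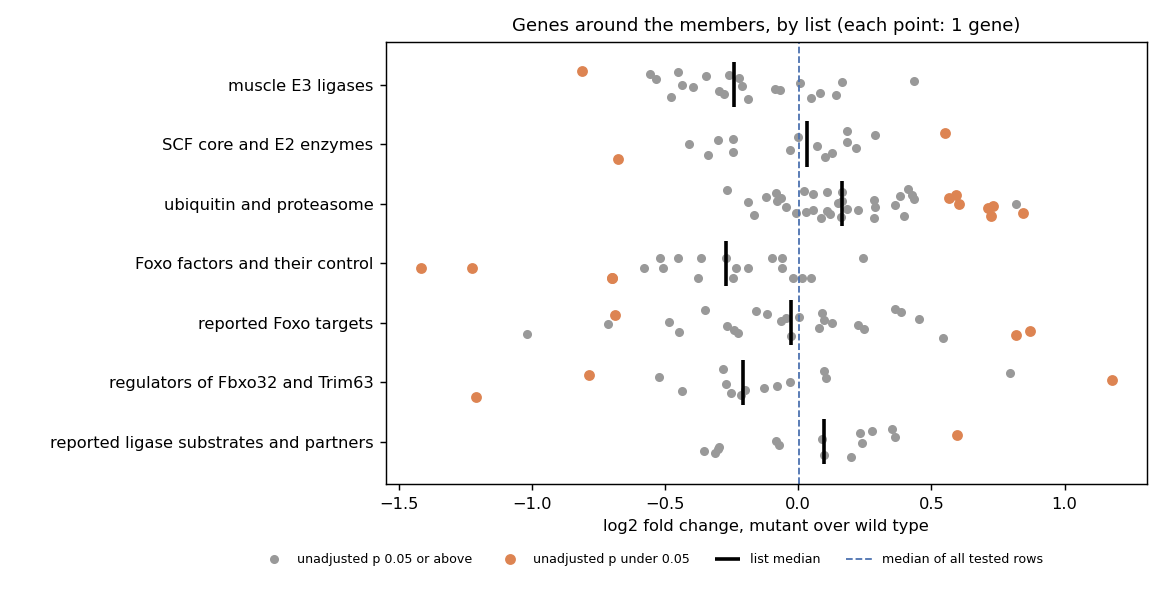
Log2 fold change, mutant over wild type, of every tested gene of the 7 lists (points), with each list's median (black bars) and the median of all tested rows (dashed line). The medians run from -0.27 for the Foxo factors and their control to 0.16 for ubiquitin and proteasome genes. The latter was -0.12 when scaled by total reads alone, where the median of all rows was -0.28. No point passed edgeR's adjusted test.

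Each member's profile over the 4 libraries was also set against 5866 other rows of at least 10 CPM on average, by the distance between mean-centred log2 levels. Foxo1 was nearest to Trip6 at a distance of 0.0270, then Slc41a1 (0.0821) and Samd4b (0.0826). Trim54 was nearest to Sepw1 (0.0443), Psmb5 (0.0685) and Gpx3 (0.0737), with Psmb5, a catalytic proteasome subunit, at 94.2, 55.7, 138.9 and 108.9 CPM. Fbxo32 was nearest to Jam2 (0.0408), Sync and Slc25a37, Trim63 to Tpm4 (0.0277), Gpr108 and Phyh, and Trim55 to Gtf3c2 (0.0184), Etv3 and the autophagy gene Becn1. Among the members, the nearest were Trim63 and Trim55 (0.227) and the farthest Trim54 and Foxo1 (1.53). With 4 libraries, near neighbours among so many rows are a description of these libraries only.

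The authors' deposited table gives ratios of single libraries on reads per 1000000 without TMM scaling. In the authors' deposited table, Foxo1 had ratios of 0.478 (mutant 1 over wild type 1), 0.622 (mutant 1 over wild type 2), 0.400 (mutant 3 over wild type 1) and 0.521 (mutant 3 over wild type 2). All 4 were below 1. Trim54 had 1.37, 2.22, 0.896 and 1.45 in the same order in the authors' deposited table, so that mutant 3 was below wild type 1 on that scale. The authors' deposited table gave Trim54 a ratio of 1.62 between the wild types and 1.53 between the mutants. For Foxo1 the authors' deposited table gave 1.30 (wild type 1 over wild type 2) and 1.19 (mutant 1 over mutant 3).

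Genes listed as markers of other tissue differed between the libraries in which these genes were read. Whether their reads came from such tissue was not tested. Of 14 fast skeletal fibre markers, 12 were tested and all had reads. Without Ckm, which the heart also makes at high levels, the 13 others summed to 55.4, 45.9, 392 and 79.4 CPM, with mutant 1 far above the other libraries. Tnnt3, for example, had 8, 5, 1516 and 20 reads. Not every marker of the list followed that pattern. Myh4 was high in both mutants, at 9.97, 11.97, 44.4 and 33.2 CPM. Mybpc2 was highest in mutant 3, at 20.7, 9.16, 23.4 and 26.4 CPM. Cacna1s was lower in both mutants, at 4.85, 4.43, 4.39 and 2.74 CPM. Skeletal muscle also makes the ligases, and mutant 1 had the highest Fbxo32 and Trim54 of the 4 libraries, while Trim63 was highest in mutant 3 (156.0 against 147.3 CPM in mutant 1). Without mutant 1, Trim54 was at a log2 fold change of 0.61 and Foxo1 at -0.68. The atrial markers (4 genes) summed to 431, 178, 3453 and 3084 CPM. All 4 were higher in both mutants, as were 22.3% of all tested rows. Nppa made up most of each sum (375, 173, 3312 and 2972 CPM). The wild types also differed, with Myl7 at 29.6, 2.72, 77.4 and 61.8 CPM and Myl4 at 21.2, 2.57, 53.7 and 43.7. The 5 slow fibre markers summed to 39.0, 79.9, 152 and 119 CPM. Of these, Myh7b gave 23.4, 66.4, 56.9 and 69.4 CPM, with overlapping groups, and Tnnt1 13.3, 11.4, 84.7 and 44.1. Fibroblast, endothelial, smooth muscle and leukocyte markers summed to 617 to 797, 396 to 515, 302 to 350 and 67.1 to 96.0 CPM. The 5 adipocyte markers, nearly all from Fabp4, summed to 136 to 466 CPM, with Ucp1 at 0 in 3 libraries and Adipoq at 0 to 9 reads. The part of other tissue in the members' values was not tested beyond these figures.

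Transcript length and base composition also moved with the comparisons. Over the 81.4% of tested rows matched to a transcript, the median log2 fold change between the groups ran from 0.21 in the shortest quartile to -0.14 in the longest. Between the wild types, wild type 1 over wild type 2 ran further with length, from 0.28 to -0.17. With base composition it ran from -0.57 in the quartile of lowest GC content to 0.35 in the highest, while mutant 1 over mutant 3 stayed between -0.01 and 0.01. Trim54 has a short transcript of high GC content (1434 bases, 59.9%) and Foxo1 a long one (8665 bases, 48.5%). With a correction of both properties, chosen after the data were seen, Trim54 was at 0.71 and Foxo1 at -0.66 (edgeR adjusted p = 0.153 and 0.311). On the same rows without it they were at 0.77 and -0.71. The corrected values of Fbxo32, Trim63 and Trim55 were 0.18, 0.11 and -0.01.

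**Figure D5:**
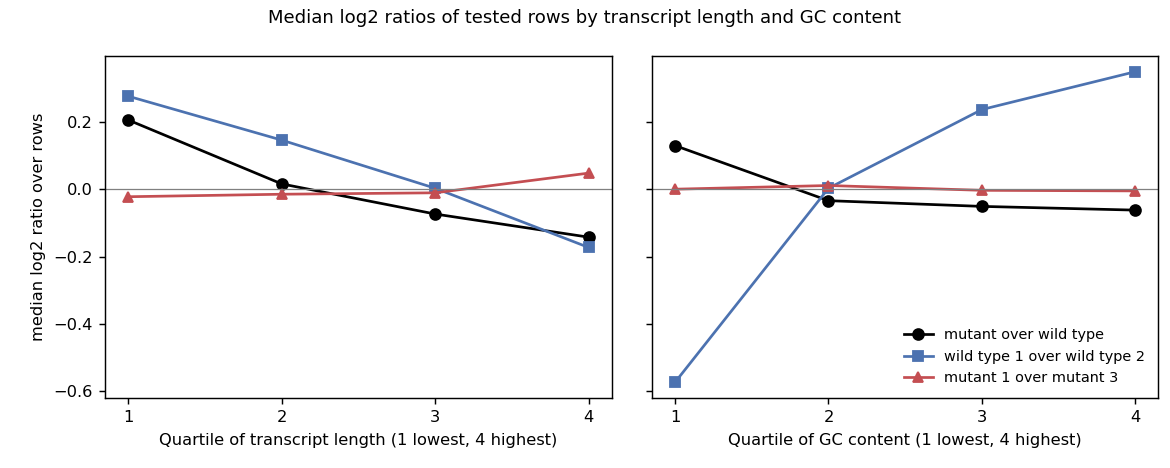
Median log2 ratio of tested rows in each quartile of transcript length (left) and GC content (right), for mutants over wild types and for the libraries within each group. By GC content the wild types run from -0.57 to 0.35, and by length from 0.28 to -0.17, further than the groups do by length (0.21 to -0.14).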

How the data were processed

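Per the submitters' processing notes, TopHat 1.2.0, Cufflinks and build mm9 were used. The annotation, the counting rule and the use of strand were not given in the sources used here, so reads shared by related genes such as the MuRF paralogs are uncertain. In their tables the authors deposited whole-number read counts per row, CPM values, a ratio for each pair of libraries and a p-value for each pair (test not given). Counts were the input here. The deposited CPM equalled reads per 1000000 to within 4.96e-06 and was not otherwise used, the deposited ratio was copied for 2 members, and the deposited p-value was not used. Starts are printed counted from 1.

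Of 29595 rows, 7646 had no read, and 16128 were tested after filterByExpr. Tests used edgeR 4.0.16 (R 4.3.3) with TMM scaling, 2 against 2 libraries, two-sided, without covariates, and Benjamini-Hochberg adjustment over all tested rows; the code was checked on simulated counts. SE and 95% intervals come from the quasi-likelihood statistic. Nothing in the labels names a batch or litter, and the design text speaks of separate hearts. The p-values weigh a group difference against the spread within groups, estimated with information shared over rows. They do not separate genotype from sex. Counts of any 2 libraries differed beyond sampling noise (chi-square per degree of freedom 31.8 to 145).

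Alternatives were DESeq2 1.42.0, limma-voom (limma 3.58.1), other scalings and filters, each library left out, and, added after seeing the data, a loess correction for GC content and length on GENCODE M21 transcripts. Lengths per gene are of the longest coding transcript with a curated RefSeq accession. Older symbols were matched through a RefSeq gene table of GRCm38.p6, taking the row of widest span for Foxo3.

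Members, lists and the naming rule were chosen with earlier results of these data known. The rule named the members, the Foxo paralogs, up to 6 called genes per list or otherwise the 2 of smallest p, the 3 nearest profiles per member, and leading markers. Myog, Mstn, Dach2, Tnnt3, Myh4, Mybpc2, Cacna1s, Ucp1 and Adipoq were named after their values were seen.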

Additional observations from a re-analysis of the deposited data

How the results depend on the processing

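The number of rows that passed, 21 with edgeR, was 227 with DESeq2, 156 with scaling by total reads, 317 with no filter, 4 with at least 1 CPM in all libraries, 3 without rows on X, Y and M and rows above 1% of a library, 69 at an adjusted p under 0.1, 60 with the GC and length correction, and 63 to 3675 with 1 library left out. Over 14 alternatives, the log2 fold change of Foxo1 stayed between -1.01 and -0.53 and that of Trim54 between 0.46 and 1.13. Leaving out 1 library gave -0.89 to -0.53 for Foxo1 and 0.46 to 1.13 for Trim54. With total reads Fbxo32 turned to -0.22, Trim63 to -0.12, and Trim55 was -0.29, where the median of all rows was -0.28. Leaving out 1 library gave -0.16 to 0.28 for Fbxo32. Trim55 turned to 0.0038 with upper quartile scaling, 0.010 with the 1 CPM filter and 0.0040 on rows with a transcript, and was -0.0246 to 0.0558 with 1 library left out. The log2 ratio of Trim63 to Trim54 was -0.90 to -0.35, that of Trim63 to Trim55 0.10 to 0.25, that of Trim54 to Trim55 0.44 to 1.146 and that of Fbxo32 to Trim63 -0.40 to 0.13 with 1 library left out. The causes were not tested. No paired analysis was possible because the groups share only 1 replicate number. With 2 hearts per group, 95% intervals of the members span about 1 log2 unit.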
